A study of Gallus gallus with 8 samples.

Results

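The comparison set 4 libraries from cells targeted for knockout of a subunit of SF3b against 2 libraries from cells targeted for knockout of DLC1, which is 6 of the 8 libraries of the series. The SF3b libraries were the 2 given Cas9 with a guide RNA against PHF5A and the 2 given Cas9 with a guide against SF3B1. They were chosen by the target named in their labels. All came from green fluorescent (GFP+) primary neural crest cells of the chicken trunk (Gallus gallus), and each of the 2 libraries of a knockout carried a different guide. The other 2 libraries, given a scrambled guide, were on neither side of the comparison. They entered the filter on low counts, the scaling and the estimate of the spread, and showed where a level lay without a targeting guide.

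SF3b is a protein complex of the U2 small nuclear ribonucleoprotein, the part of the spliceosome that recognises the branch point of an intron before it is cut out. SF3B1 is its largest subunit and PHF5A a small one, and together they form the pocket that holds the branch-point adenosine. DLC1 is best known as a tumour suppressor. The title of the series names all of them together as a splicing complex, so the comparison asks where the transcriptome after loss of either SF3b subunit departs from that after loss of DLC1.

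Whether the libraries came from separate cultures is not stated in the labels. The p-values therefore reflect the spread between these 6 or 8 libraries alone, guide differences included, and part of it may be technical. The labels do not say what share of the cells carried an edit or what the fluorescence marks. The table pairs its IDs with no gene names, so the level of each targeted gene and the markers of neural crest and of other cell types were not analysed here. Genes are described instead by their place, their genomic span and their reads.

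Depth differed between the knockouts. The PHF5A libraries held 34371525 and 33864758 counts and the SF3B1 libraries 19565587 and 18545207, against 34460321 and 34698250 in the DLC1 libraries. The W chromosome, carried by females, took 0.0402% and 0.121% in PHF5A, 0.259% and 0.193% in SF3B1, and 0.117% and 0.138% in DLC1 knockout, of the counts outside the mitochondrial genome. Mitochondrial counts took 8.01% to 19.6% of the SF3b libraries and 9.65% and 15.7% of the DLC1 libraries. The scrambled libraries held 19163114 and 18226753 counts, near the totals of the SF3B1 libraries, while the PHF5A totals were near those of DLC1. Where SF3B1 goes with the scrambled libraries and PHF5A with DLC1, depth and target therefore cannot be told apart. Mitochondrial counts took 25.9% and 21.4% of them, more than in any knockout library. Their W shares, 0.198% and 0.00279%, differed more from each other than those of the 2 libraries of any knockout. By the rule set for the comparison, mitochondrial, Z and W features were left out of scaling and tests. Of the 29009 remaining features, 14761 passed the filter on low counts.

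Few genes separated the SF3b knockouts from DLC1 knockout by the test. Of 14761 genes, edgeR's quasi-likelihood test called 44 at an adjusted p under 0.05, or 0.298%. Of these, 6 rose in the SF3b knockouts and 38 fell, each relative to DLC1 knockout (0.0406% and 0.257% of tested genes). Rose and fell carry that sense below. The log2 fold change used here is the mean of the fitted PHF5A and SF3B1 levels minus the fitted DLC1 level. Among the genes that rose it ran from 1.41 to 3.63 and among those that fell from -4.27 to -0.80, and 40 of the 44 changed by at least 2-fold. At an unadjusted p under 0.05 there were 3314 genes, of which 1820 were higher and 1494 lower in the SF3b knockouts. Neither the number nor the balance of directions held under other processing: DESeq2 called 1033 genes, 624 higher and 409 lower, and edgeR without the filter on low counts called 1805, 1042 higher and 763 lower. The number called by edgeR also depended on single libraries. It was 0 without the guide 2 library of DLC1 (1142 genes at an unadjusted p under 0.05), 19 without its guide 1 library, 8 without the guide 1 library of SF3B1, 5 without its guide 2 library, 17 without the guide 2 library of PHF5A and 1051 without the guide 1 library of PHF5A.

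**Figure D1:**
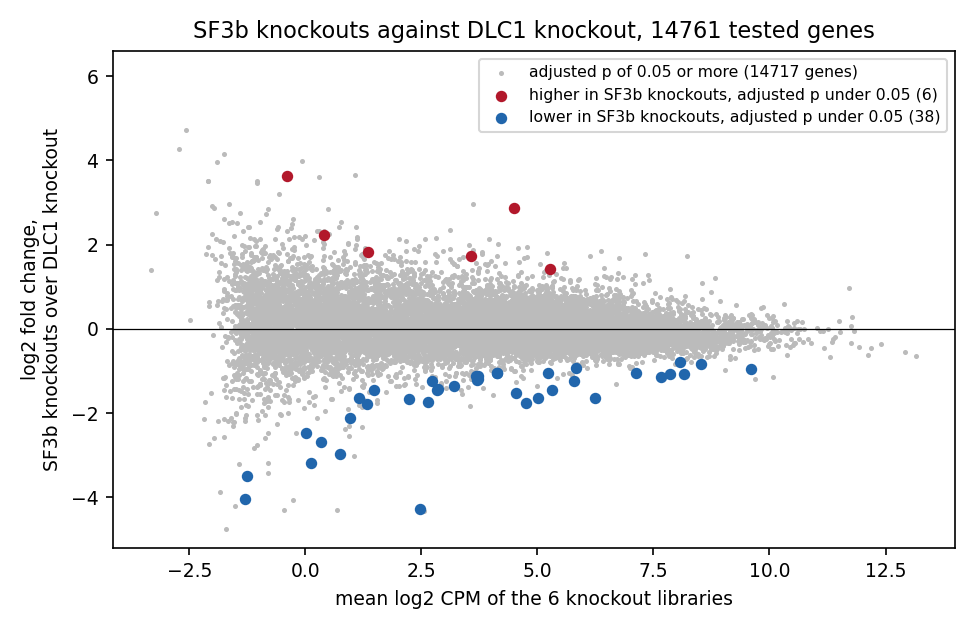
Each point is 1 of 14761 tested genes, with the mean log2 CPM (reads over the scaled library size) of the 6 knockout libraries on the x axis and the log2 fold change of SF3b knockouts over DLC1 knockout on the y axis. Coloured points are the 6 genes that rose and the 38 that fell at an adjusted p under 0.05, and most of the genes called lie below 0.

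The SF3B1 libraries stood farther from the DLC1 libraries than those of PHF5A did. The root mean square difference of log2 CPM over all tested genes was 0.598, 0.811, 0.675 and 0.809 between SF3B1 and DLC1 libraries, and 0.455, 0.602, 0.579 and 0.730 between PHF5A and DLC1 libraries. Between PHF5A and SF3B1 libraries it was 0.582, 0.694, 0.569 and 0.580, all taken without thinning to equal depth. The 2 guides of a target differed by 0.511 for PHF5A, 0.464 for SF3B1 and 0.472 for DLC1. The lowest of all these values joined the guide 1 libraries of PHF5A and DLC1, which lay closer to each other than the 2 PHF5A libraries did.

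Set against DLC1 knockout each on its own, SF3B1 knockout had 887 called genes (6.01%), of which 457 rose (3.10%) and 430 fell (2.91%). PHF5A knockout had 1 called gene (0.00677%), which fell, and 0 that rose by edgeR, with 1889 genes at an unadjusted p under 0.05 and 285 called by DESeq2. These comparisons share the DLC1 libraries. SF3B1 against PHF5A, which uses no DLC1 library, gave 184 called genes (1.25%), of which 63 were higher (0.427%) and 121 lower (0.820%) in SF3B1 knockout. Of the 44 genes called for the SF3b knockouts together, 13 also differed between SF3B1 and PHF5A knockout at an adjusted p under 0.05 (edgeR), 11 of them lower in SF3B1 and 2 lower in PHF5A. The 44 were chosen on the mean of these same libraries, so a large change in 1 subunit alone can bring a gene in. SF3B1 libraries were the shallower and had the higher W share. As an alternative added after the data were seen, the W share of all counts, mitochondrial ones included, entered as a model term. With it the calls were 17 for SF3B1 against DLC1 and 0 for SF3B1 against PHF5A (1209 genes at an unadjusted p under 0.05). The term takes 1 of the 4 residual degrees of freedom. It was highest in SF3B1 among the knockouts, so W share and target are partly confounded in this fit. Whether the W share bears on the calls was not tested. Without the guide 2 library of DLC1 SF3B1 against DLC1 had 5 calls.

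All 4 SF3b libraries lay on the same side of both DLC1 libraries in 39 of the 44 called genes (0.264% of tested genes), 6 above (0.0406%) and 33 below (0.224%). The call was made on these same libraries and favours such an order, so the 39 are a description and not a separate result. Over all tested genes the SF3b libraries were on one side in 3648, or 24.7%, with 2041 above (13.8%) and 1607 below (10.9%). Were the 6 libraries interchangeable, each side would be met by a share of 0.0667, from the 15 possible splits. Being on one side alone thus does not mark a gene as different. Most differences in the 3648 genes were small, with a median log2 fold change of 0.67 among the genes above and -0.50 among those below. A gap of at least 1 log2 unit between the nearest SF3b and DLC1 libraries was left in 27 genes above (0.183%) and 21 below (0.142%). It reached 2 log2 units in 0 genes above and 2 below (0.0135%), both on chromosome 4 and both called. The first is ENSGALG00000065294, described further on, and the second, at 87077038 to 87302108 (plus strand), had 7 and 1 reads in PHF5A and 1 and 2 reads in SF3B1 knockout, against 63 and 48 reads in DLC1 knockout. The median over the genes above was 2.16 for PHF5A and 2.69 for SF3B1 against DLC1, and over the genes below -1.96 and -2.46. The 27 genes above were low in DLC1 knockout, with a median of 1.92 CPM in SF3b and 0.266 CPM in DLC1 libraries. The 21 below had medians of 0.819 CPM in SF3b and 5.09 CPM in DLC1 libraries. Of those 21, 13 overlapped a feature on the opposite strand, or 61.9%, against 27.2% of all tested genes and 5 of the 27 above. The wider sets did not share this: it was 23.0% of all 1607 genes below and 21.1% of the 38 called genes that fell. Counts behaved as if reads on overlaps were left out, so the levels of these 13 rest on the other parts of their spans. Counts also behaved as unstranded in all genes, so the strand of their reads is not known.

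**Figure D2:**
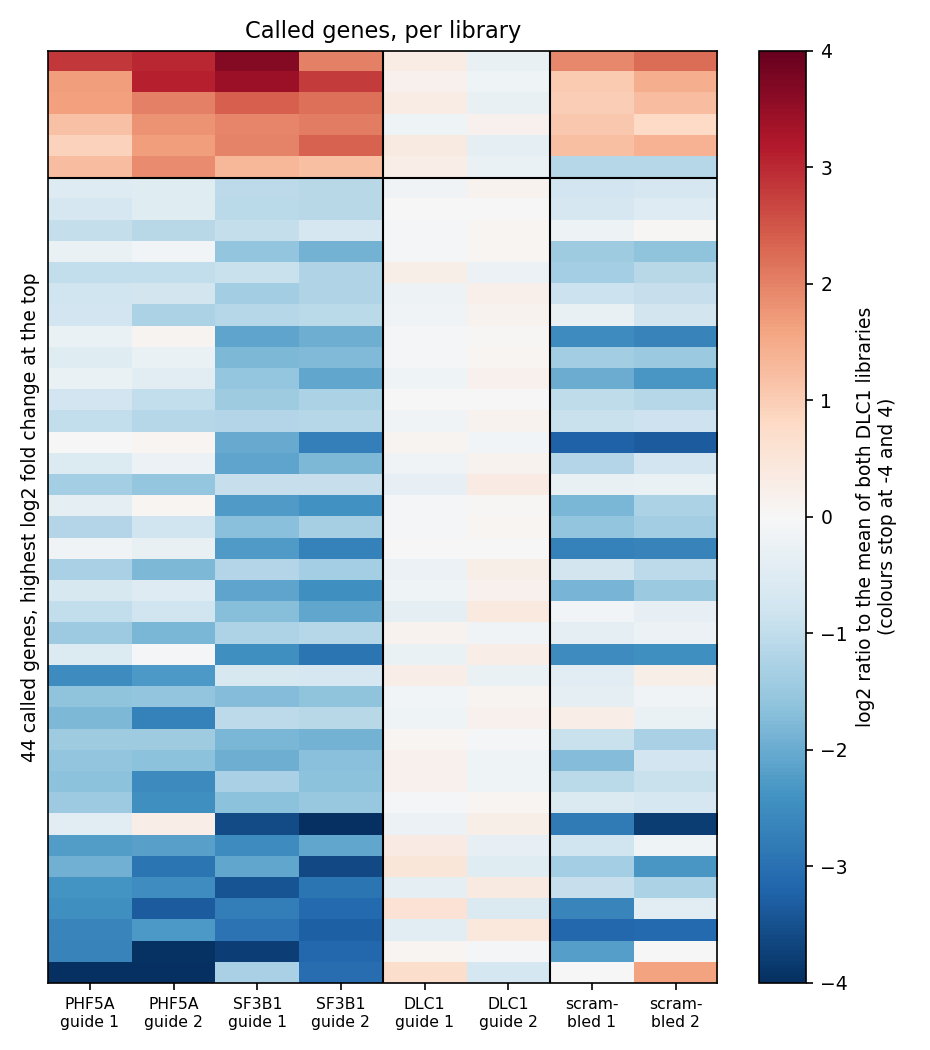
Rows are the 44 called genes and columns the 8 libraries; colour gives the log2 ratio of CPM to the mean of both DLC1 libraries. The 6 genes that rose are at the top, and in several of the 38 that fell the SF3B1 columns are dark while the PHF5A columns are near 0.

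Of the genes that rose, the strongest by the rule for named genes was ENSGALG00000038748, on chromosome 23 (2551015 to 2555961 of GRCg6a, plus strand). It stood at 19.96 and 54.8 CPM in PHF5A and 67.2 and 44.05 CPM in SF3B1 knockout, against 7.07 and 5.46 CPM in DLC1 knockout. Both scrambled libraries, at 12.8 and 17.0 CPM, lay between the groups. The mean was 46.5 ± 20.1 CPM in the SF3b libraries (SD, n = 4) and 6.26 ± 1.14 CPM in the DLC1 libraries (SD, n = 2), with a log2 fold change of 2.86 (SE 0.400, edgeR adjusted p = 0.0324). It overlaps another feature of the table, which takes the shared reads out of its count. The call was lost in 5 of 20 alternatives, among them the fits without either DLC1 library (edgeR adjusted p = 0.0529 without guide 1 and 0.245 without guide 2).

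ENSGALG00000006855, on chromosome 9 (12619515 to 12636121, minus strand), held 9.98 and 17.1 CPM in PHF5A and 21.1 and 27.0 CPM in SF3B1 knockout, against 6.82 and 4.04 CPM in DLC1 knockout. By the rule for named genes the groups could not overlap. The nearest pair, the guide 1 libraries of PHF5A and DLC1, were 0.54 apart on the log2 scale. The scrambled libraries, at 12.2 and 13.8 CPM, lay within the range of the SF3b libraries. The log2 fold change was 1.73 (SE 0.297, edgeR adjusted p = 0.0467), and the call was lost in 12 of 20 alternatives.

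Another gene that rose, on chromosome 2 (32612060 to 32613797, plus strand), differed from the other 5 in its level without a targeting guide and was picked for this after its values were seen. It stood at 47.3 and 73.8 CPM in PHF5A and 50.4 and 46.2 CPM in SF3B1 knockout, 24.2 and 16.5 CPM in DLC1 knockout, and 9.02 and 9.05 CPM with the scrambled guide. The DLC1 libraries were thus between the scrambled and the SF3b libraries (log2 fold change of SF3b over DLC1 1.41, SE 0.225, edgeR adjusted p = 0.0459). In the other 5 genes that rose, both scrambled libraries lay above both DLC1 libraries, which the call itself can favour.

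Of the genes that fell, ENSGALG00000000302 on chromosome 26 (805741 to 818458, plus strand) had the largest change and a large spread. It held 0.493 and 0.434 CPM in PHF5A knockout, from 16 and 12 reads, and 14.9 and 4.43 CPM in SF3B1 knockout. In DLC1 knockout it held 60.2 and 22.7 CPM, and with the scrambled guide 36.3 and 113 CPM. The log2 fold change was -4.27 (SE 0.565, edgeR adjusted p = 0.0288). PHF5A and SF3B1 knockout differed from each other by 4.38 on the log2 scale (edgeR adjusted p = 0.0395), with the lower level in PHF5A. The call was lost in 11 of 20 alternatives.

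ENSGALG00000065294, on chromosome 4 (57283279 to 57491565, minus strand), held 1.08 and 1.01 CPM in PHF5A and 0.468 and 0.717 CPM in SF3B1 knockout, against 4.68 and 7.75 CPM in DLC1 knockout. All 4 SF3b libraries were also below the 3.14 and 2.48 CPM of the scrambled libraries, and both DLC1 libraries were above them. The log2 fold change was -2.98 (SE 0.301, edgeR adjusted p = 0.00810). The call was kept in 19 of 20 alternatives and lost without the guide 2 library of DLC1 (edgeR adjusted p = 0.100). This gene spans 208 kb and overlaps another feature.

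**Figure D3:**
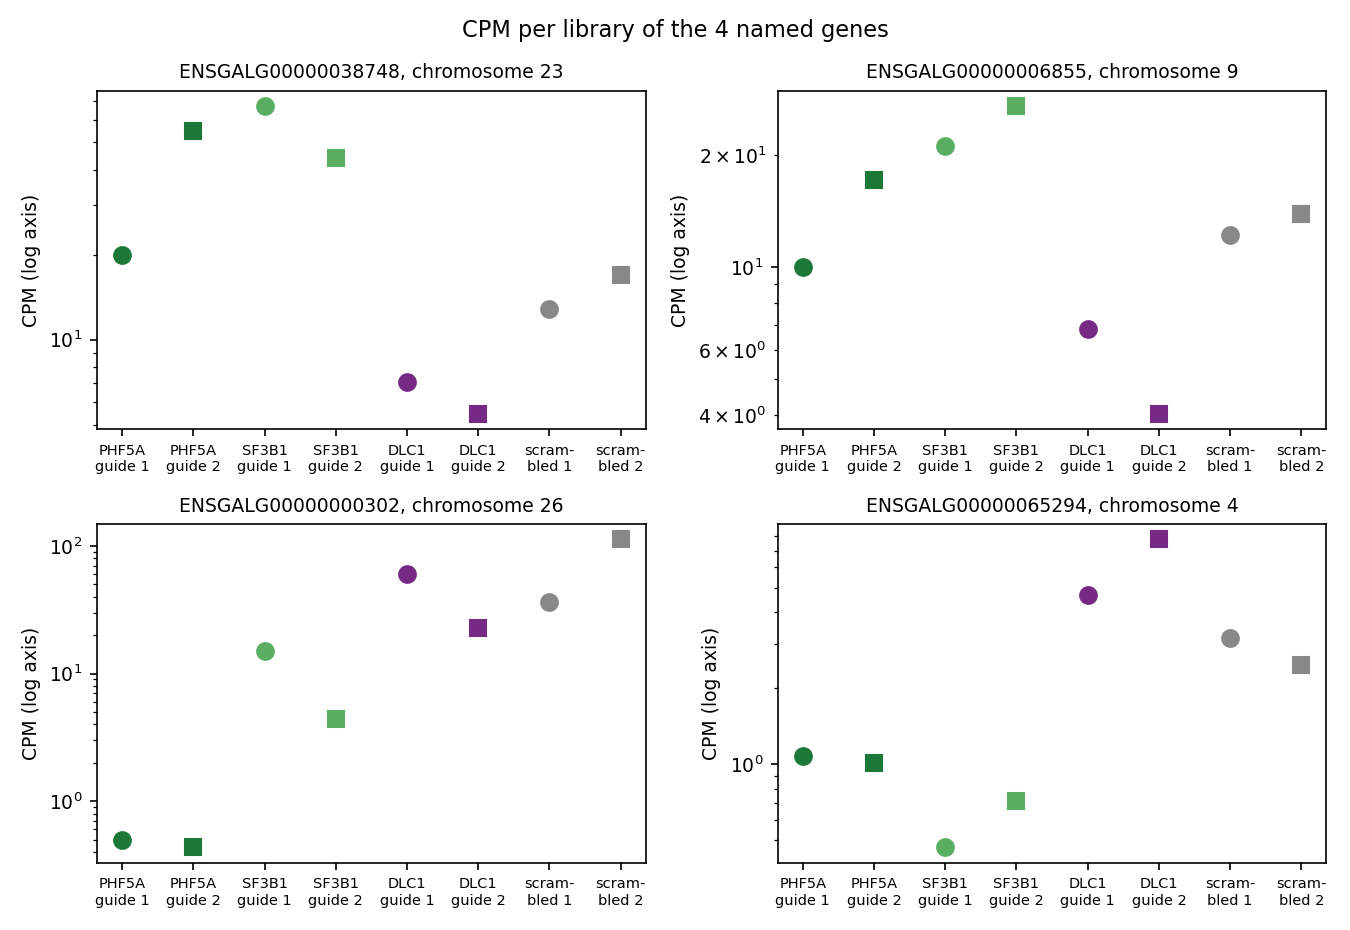
CPM on a log axis in each of the 8 libraries for the 2 genes of each direction chosen by the rule for named genes; circles are guide or replicate 1 and squares guide or replicate 2. By that rule the 4 SF3b points lie above both DLC1 points for the genes that rose and under them for those that fell. For ENSGALG00000000302 both PHF5A points lie far under the SF3B1 points.

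The lowest adjusted p of the comparison belonged to a gene on chromosome 2 (102635988 to 102655539, plus strand), described here for that reason after its values were seen. It held 22.5 and 22.7 CPM in PHF5A and 20.5 and 22.3 CPM in SF3B1 knockout, against 63.9 and 72.8 CPM in DLC1 and 51.7 and 61.9 CPM in scrambled libraries. The 4 SF3b libraries lay within 2.3 CPM of each other and below all 4 others (log2 fold change -1.64, SE 0.142, edgeR adjusted p = 0.00371). It was the 1 gene called for PHF5A against DLC1 (log2 fold change -1.60, edgeR adjusted p = 0.0332).

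The 5 called genes whose SF3b libraries did not all lie on one side were lower in SF3B1 than in DLC1 knockout. They stood near the DLC1 level in PHF5A knockout, with PHF5A log2 fold changes of -0.32 to 0.02. These genes were picked for an SF3b library not below both DLC1 libraries, although the mean of both subunits was called lower. The pick itself therefore favours genes with a subunit near the DLC1 level and a large change in the other subunit. The most abundant of them, on chromosome 4 (12808808 to 12885753, minus strand), had 344 and 368 CPM in PHF5A and 86.9 and 53.04 CPM in SF3B1 knockout, 379 and 325 CPM in DLC1 knockout and at most 37.4 CPM with the scrambled guide. Its log2 fold change against DLC1 was 0.02 in PHF5A and -2.33 in SF3B1 knockout, and the 2 differed (edgeR adjusted p = 0.00579). All 5 were called as different between SF3B1 and PHF5A, which the pick also favours, so these calls are a description and not a separate result. In all 5 the mean of the scrambled libraries was nearer to the SF3b mean than to the DLC1 mean. Over the 5 the median log2 ratio to the DLC1 mean was -2.51 and -2.67 in the scrambled libraries. It was -2.28 and -2.72 in the SF3B1 libraries and -0.36 and 0.07 in the PHF5A libraries.

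Called genes lay next to each other, within 10 kb, in 3 places, each time with 0 features between them. All of these genes fell, as did 38 of the 44 called genes. How often tested genes in general lie this close, or share a direction, was not counted. On chromosome 6 a gene at 11350644 to 11421637 and one at 11422343 to 11424645, both on the plus strand and 705 bp apart, had log2 fold changes of -1.24 and -1.36. Against DLC1 they were at -0.13 and -0.22 in PHF5A and at -2.35 and -2.49 in SF3B1 knockout. On chromosome 9 features at 3552456 to 3552574 (plus strand) and 3552579 to 3556010 (minus strand) had log2 fold changes of -2.11 and -1.05, again with PHF5A at -0.06 and -0.07 and SF3B1 at -4.17 and -2.04. On chromosome 1 features at 83021317 to 83023667 and 83026159 to 83080118, both on the minus strand, had log2 fold changes of -1.46 and -1.75, with PHF5A at -1.68 and -1.64 and SF3B1 at -1.23 and -1.85. In the scrambled libraries the log2 ratios to the DLC1 mean on chromosome 6 were -1.82 and -1.26 for the first gene and -2.70 and -2.66 for the second. On chromosome 9 they were -2.84 and -3.79, then -2.51 and -2.67. On chromosome 1 they were -0.41 and -0.22, then -1.75 and -0.78. Whether neighbours of this kind are parts of the same transcript was not tested.

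The position of the scrambled libraries was compared as a description. In the 38 genes that fell, the mean of the scrambled libraries was nearer to the SF3b mean in 26 and nearer to the DLC1 mean in 12 (on log2 CPM), against 6943 and 7818 of all tested genes. In 24 of the 33 that had all SF3b libraries below, both scrambled libraries were below both DLC1 libraries as well, against 748 of all 1607 genes with the SF3b libraries below. The 38 were called for DLC1 levels above SF3b levels, which can itself place the scrambled libraries nearer to SF3b. These counts are therefore not to be read against those of all tested genes or of the 1607. The median log2 ratio to the DLC1 mean over the 38 genes was -0.98 and -1.12 in the PHF5A libraries, -1.70 and -1.78 in the SF3B1 libraries and -1.04 and -0.91 in the scrambled libraries.

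Genes with very long spans had a lower median level in the SF3b knockouts than in DLC1 knockout. Of the 254 features over 300 kb, 220 were tested, and all 4 SF3b libraries lay below both DLC1 libraries in 69 of them (31.4%) and above in 3 (1.36%), against 10.9% and 13.8% of all tested genes. The median log2 fold change of the 220 was -0.42, with quartiles at -0.71 and -0.14, where all tested genes had a median of 0.00. Values below 0 were found in 180 of the 220 (81.8%, against 49.9% of all tested genes), and 27 lay at -1 or less (12.3%, against 2.11%). Single genes of this length seldom passed the test, with 3 that fell (1.36%, against 0.257% of all tested genes) and 0 that rose.

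Each library showed where the difference lay. Over the 220 genes the median log2 ratio to the mean of the DLC1 libraries was -0.16 and -0.16 in PHF5A, -0.56 and -0.74 in SF3B1, -0.04 and 0.04 in DLC1 and -0.70 and -0.55 in the scrambled libraries. All 4 SF3b libraries were thus below both DLC1 libraries, the PHF5A libraries slightly and the SF3B1 libraries as far as the scrambled ones. The SF3B1 and scrambled libraries were also the shallower ones, so depth and target cannot be told apart in this split. The fitted median was -0.18 for PHF5A and -0.65 for SF3B1 against DLC1. Taken relative to the median of all genes in the same library, the SF3b libraries averaged -0.41 ± 0.29 (SD, n = 4) and the DLC1 libraries were 0 by construction, with an SD of 0.06 (n = 2). The SF3b values were -0.17 and -0.18 in PHF5A and -0.57 and -0.74 in SF3B1, so their mean lies between the 2 targets. A permutation of the labels over the 6 libraries, with 15 arrangements, gave a two-sided p of 0.133 (0.400 after Benjamini-Hochberg adjustment over 3 span measures). The DLC1 mean stayed the reference in every arrangement, so the 2 DLC1 values mirror each other around 0. The permutation p is therefore not exact and serves as a description only. It also takes the PHF5A and SF3B1 libraries as interchangeable. The smallest p this design allows is 0.0667, so no arrangement could pass 0.05. Set against genes of up to 3 kb in the same library instead, the values were 0.08 and -0.29 in PHF5A and -0.52 and -0.93 in SF3B1, against 0.02 and -0.02 in DLC1 libraries. By that measure the guide 1 library of PHF5A lay above both DLC1 libraries (two-sided permutation p = 0.333, adjusted 0.500, with the same limit). SF3B1 and PHF5A differed in 11 of the 220 genes at an adjusted p under 0.05 (edgeR), and SF3B1 was lower in all 11.

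**Figure D4:**
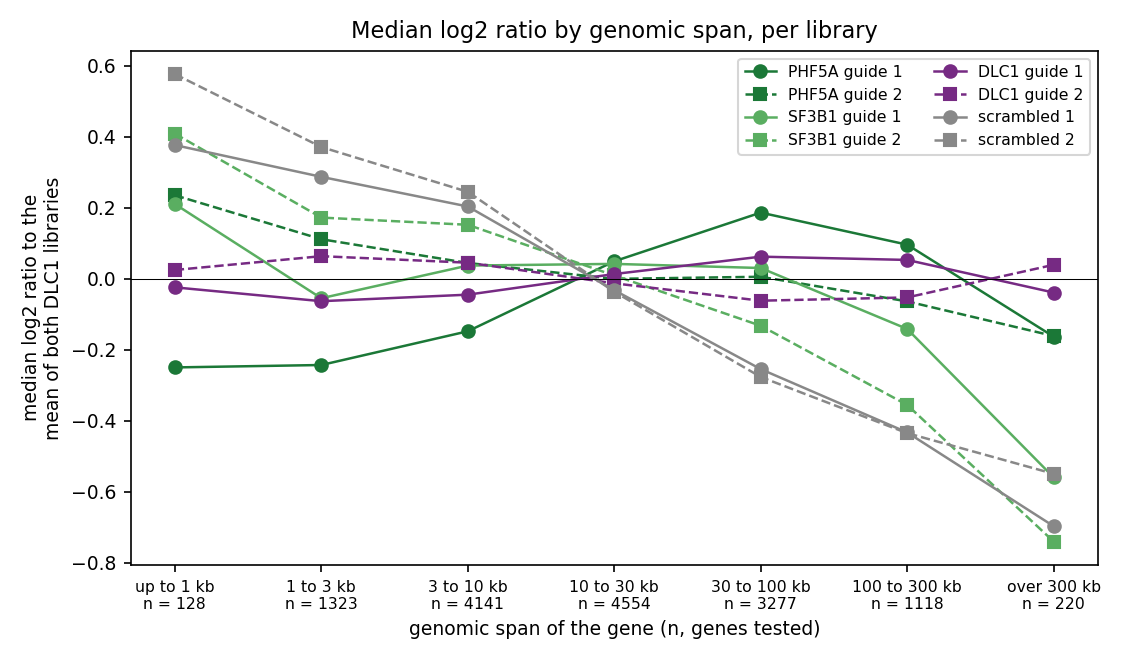
Median log2 ratio to the mean of both DLC1 libraries (y axis) for genes in 7 classes of genomic span (x axis), with a line for each library. The lines meet at 10 to 30 kb, and over 300 kb both PHF5A lines lie at -0.16, both SF3B1 lines at -0.56 and -0.74 and the scrambled lines at -0.70 and -0.55.

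In shorter classes the fitted medians of both subunits together were nearer 0, but single libraries were not: in genes of up to 1 kb the median log2 ratio to the DLC1 mean was -0.25 and 0.24 in the PHF5A libraries and 0.21 and 0.41 in the SF3B1 libraries, against -0.02 and 0.02 in the DLC1 libraries. The guide 1 library of PHF5A was thus farther from DLC1 there than over 300 kb, and the 2 PHF5A libraries lay on opposite sides. At 100 to 300 kb, 175 of 1118 genes had all SF3b libraries below both DLC1 libraries (15.7%) and 101 above (9.03%), with a median log2 fold change of -0.13. It was 0.04 for PHF5A and -0.24 for SF3B1 against DLC1. From 1 to 100 kb the medians ran from -0.01 to 0.02. At 10 to 30 kb 815 of 4554 genes were above (17.9%) and 462 below (10.1%), and at 30 to 100 kb 517 of 3277 were above (15.8%) and 321 below (9.80%). Among the shortest class, up to 1 kb, the median was 0.15 over 128 tested genes, with 14 above and 7 below. The difference between genes of 30 to 100 kb and those of up to 3 kb overlapped between the groups (two-sided permutation p = 0.933, not exact, as above). It was 0.43 and -0.12 in PHF5A, 0.07 and -0.32 in SF3B1 and 0.12 and -0.12 in DLC1 libraries. For that measure the guide 1 library of each target was higher than the guide 2 library.

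**Figure D5:**
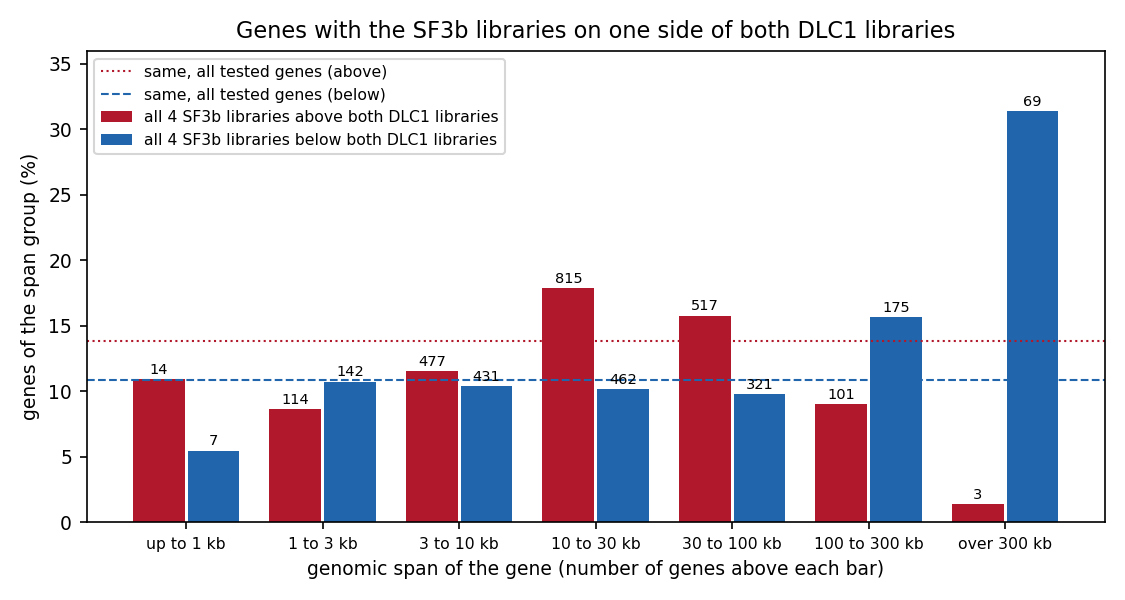
Share of tested genes of each span class (y axis, percent) whose 4 SF3b libraries all lie above (red) or all below (blue) both DLC1 libraries, with the number of genes over each bar and dotted and dashed lines for all tested genes. Over 300 kb 69 genes lie below and 3 above, while at 10 to 30 kb 815 lie above and 462 below.

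The fitted median of the longest genes was below 0 at each level of expression. It was -0.60, -0.36 and -0.37 for the 89, 88 and 43 genes in the lowest, middle and highest of 3 equal bins of tested genes by mean log2 CPM. For PHF5A alone it was -0.32, -0.11 and -0.13, and for SF3B1 -0.83, -0.61 and -0.59. In the highest bin the median log2 ratio of the PHF5A guide 1 library, 0.01, lay above the -0.05 of the DLC1 guide 1 library. The fitted median was also below 0 on chromosomes 1 to 10 (-0.46, 61 of 188 genes below and 0 above) and on chromosomes 11 to 33 (-0.26, 8 of 32 below and 3 above). It was -0.17 and -0.18 there for PHF5A and -0.71 and -0.46 for SF3B1. On chromosomes 11 to 33 the PHF5A guide 1 library, at -0.03, lay just above the DLC1 guide 1 library, at -0.04. Between 100 and 300 kb the median was -0.15 on chromosomes 1 to 10 and 0.03 on chromosomes 11 to 33. Genes over 300 kb that overlapped another feature had a median of -0.47 (n = 98), and those that overlapped none had a median of -0.42 (n = 122). The SF3B1 libraries were the shallowest of the 6 and had the highest W shares. With every library thinned to the total count of the shallowest the median over 300 kb was -0.42, and it was also -0.42 once the W share entered the model. Thinning keeps the expected ratio of a gene between libraries, so an unmoved median was given by the method. The W term was fitted on all 8 libraries, the scrambled ones included. Whether depth or W share bears on the median was not tested.

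The 3 genes over 300 kb that passed the test were chosen for description after their values were seen. One on chromosome 6 (2369760 to 2888506, minus strand) held 3.66 and 3.66 CPM in PHF5A and 2.76 and 2.61 CPM in SF3B1 knockout, against 10.4 and 9.46 CPM in DLC1 and 5.30 and 4.01 CPM in scrambled libraries. Both knockouts of SF3b were below every other library there (log2 fold change -1.66, SE 0.210, edgeR adjusted p = 0.0271). One on chromosome 1 (2886386 to 3333861, plus strand) held 8.78 and 9.63 CPM in PHF5A and 3.12 and 2.41 CPM in SF3B1 knockout, against 12.1 and 15.5 CPM in DLC1 and 3.72 and 4.87 CPM in scrambled libraries (log2 fold change -1.44, SE 0.215, edgeR adjusted p = 0.0366). On chromosome 4, the last of them (35560933 to 36222210, plus strand) held 15.5 and 19.1 CPM in PHF5A and 5.20 and 6.45 CPM in SF3B1 knockout, against 20.4 and 25.1 CPM in DLC1 and 10.1 and 13.4 CPM in scrambled libraries (log2 fold change -1.18, SE 0.202, edgeR adjusted p = 0.0467). In these last 2 genes PHF5A lay between SF3B1 and DLC1, and SF3B1 and PHF5A differed (edgeR adjusted p = 0.0247 and 0.0254).

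Reads were counted over each gene's whole span, so these levels take in reads from introns. Levels from a bulk library do not tell fewer cells of a type from less RNA per cell.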

How the data were processed

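Poly(A) RNA of about 50000 GFP+ cells per treatment was sequenced from Illumina stranded libraries, per the labels' protocols. Per the submitters' processing notes, reads were handled with Trimmomatic 0.39, FastQC 0.12.1, featureCounts 1.5.3 and STAR 2.7.11b on GRCg6a. Strand setting and annotation are not stated there. The deposited table holds unnormalised read counts for 30862 Ensembl features and their coordinates. The length equalled the span in 100% of rows. All 5357 features lying inside another feature held 0 reads, 2989 of them with hosts on the opposite strand only, so counts behaved as unstranded counts over whole spans without reads on overlaps. Of 25635 RefSeq genes at hand (GRCg7b), 0 carried an Ensembl ID; gene lists, markers and sequences were not used here.

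Features on MT, Z and W (1853) were left out. All 8 libraries entered 1 fit of edgeR 4.0.16 (R 4.3.3): filterByExpr, scaling by trimmed mean of M-values, a robust quasi-likelihood F-test with 4 groups, and Benjamini-Hochberg adjustment (threshold 0.05). CPM used the scaled library sizes; log2 CPM used a prior count of 2. A floor of 3 counts was 0.0924 to 0.195 CPM in the knockout libraries. The widest Wilson 95% interval of a share reached 0.0196 percentage points each way; intervals and floors cover counting error only. The chi-square per degree of freedom between the libraries of a group was 21.1 to 67.7, far above sampling noise. The test was also run on counts simulated from the mean levels, library sizes and spread of the main fit, without shifts of single libraries.

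Named genes were the 2 highest and 2 lowest by log2 fold change among called genes with the SF3b libraries on one side of both DLC1 libraries and a group mean of 5 CPM or more. Alternatives were median-ratio size factors, library size only, DESeq2 1.42.0, limma-voom (limma 3.58.1), no filter, other designs, thinning, a replicate block and leaving out each library. The comparison and gene groups were chosen with earlier results of these data known. Coordinates are on GRCg6a, as deposited.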

Additional observations from a re-analysis of the deposited data

Results flagged for a closer look

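SF3B1 and PHF5A knockout differed in 13 of the 44 called genes by the test of SF3B1 against PHF5A (edgeR adjusted p under 0.05), a test that called 184 of all 14761 tested genes (1.25%). Over all genes it called 0 with the W share as a model term (1209 genes at an unadjusted p under 0.05, and 598 by DESeq2 without that term) and 3 without the guide 2 library of SF3B1. The 44 genes were chosen on the mean of these same PHF5A and SF3B1 libraries, so a large change in 1 subunit alone can bring a gene in. The 13 of 44 is therefore not to be read against the share of all tested genes. In 11 of the 13 genes SF3B1 knockout was the lower and in 2 PHF5A knockout. For ENSGALG00000000302 that test gave an edgeR adjusted p = 0.0395, with a mean of 0.464 CPM in PHF5A and 9.68 CPM in SF3B1 knockout, against 41.5 CPM in DLC1 knockout (n = 2 each). The other of the 2, on chromosome 20 (9001255 to 9014412, minus strand), held 0.708 and 0.833 CPM in PHF5A and 2.81 and 2.74 CPM in SF3B1 knockout, against 5.40 and 3.68 CPM in DLC1 knockout (edgeR adjusted p = 0.0461 between SF3B1 and PHF5A).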

How the results depend on the processing

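The count of called genes (44) was not stable. For SF3b against DLC1 it was 4 with scaling by library size only (0 higher), 1033 with DESeq2, 1805 without a filter on low counts, 19 with the 6 knockout libraries in 3 groups, 5 with them in 2 groups, 18 with MT, Z and W kept and 16 with libraries thinned to the same total count. With the W share as a covariate, chosen after the data were seen, it was 3, in a fit with fewer residual degrees of freedom. DESeq2 shared 43 of the 44 genes and the fit without a filter all 44. Leaving out a library gave 0 to 1051 calls. The cause was not tested.

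For PHF5A against DLC1 (1 call) the count was 7 with median-ratio size factors, 4 with limma-voom, 8 without unplaced scaffolds (added after the data were seen), 2 with 6 libraries in 3 groups and 2 after thinning. It was 285 with DESeq2, 738 without a filter and 0 with the W share (1327 genes at an unadjusted p under 0.05), and 0 to 117 without a library. For SF3B1 against DLC1 (887) it was 1814, 2509 and 17 under DESeq2, no filter and the W share, and 5 to 1713 without a library. Scaling by library size only moved its split to 538 higher and 278 lower, with the median of all genes at 0.09. For SF3B1 against PHF5A (184) it was 598, 989 and 0, then 79 with 6 libraries, and 3 to 137 without a library.

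The labels do not say that guide numbers pair the libraries. Same-numbered deviations correlated at -0.24 to 0.32 between groups, over 0.1 in 3 of 6 group pairs, so pairing was not taken as shown. With a replicate block the calls were 430 for SF3b against DLC1, 22 for PHF5A, 1944 for SF3B1 and 588 between SF3B1 and PHF5A.

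The median log2 fold change of genes over 300 kb (-0.42) stayed below 0 in all 20 alternatives, from -0.47 to -0.34, the last with scaling by library size only, where all genes had a median of 0.08. Genes with the SF3b libraries on one side (3648) numbered 3825 to 7852 without a library; where a knockout library is left out the rule asks it of 5 libraries only. None of the 4 named genes changed direction. Depth limits genes under the floor of 3 counts.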

Other observations

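Chromosomes differed little. Of the chromosomes with at least 20 tested genes, chromosome 2 had the lowest median log2 fold change of SF3b knockouts over DLC1 knockout, -0.06 over 1430 genes (164 with all SF3b libraries above both DLC1 libraries and 180 below). Chromosome 31 had the highest, 0.25 over 46 genes (6 above and 1 below), at 0.24 for PHF5A and 0.28 for SF3B1 against DLC1. Chromosome 15 followed at 0.09 over 377 genes (60 above and 28 below). Chromosomes 2 and 4 each held 6 of the 38 genes that fell, or 0.420% and 0.518% of their tested genes, against 0.257% of all tested genes; the share was higher on chromosomes 13 (0.865%), 26 (0.772%) and 6 (0.557%).

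By level, the lowest of 3 equal bins of tested genes had a median log2 fold change of 0.10, with 808 above and 531 below, and the highest bin a median of -0.07, with 486 above and 558 below. Of genes over all levels, 312 lay at a log2 fold change of -1 or less and 759 at 1 or more, while called genes were mostly lower.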
